A study of Mus musculus with 16 samples.

Results

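The comparison described here is the difference between 2 responses to ultraviolet B (UVB) light, measured by RNA sequencing in mouse epidermis. For each gene, the change of its log2 level with UVB in control epidermis was subtracted from the same change in epidermis lacking C/EBPβ. A difference below 0 means that the knockout responded less upward, or more downward, than the control. All genes of the table entered, and no gene was chosen by its values. Of 49585 genes, 17741 had enough counts to be tested, and all 16 libraries were used, 4 in each of 4 groups.

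The mice were SKH-1, hairless mice often chosen for studies of skin and ultraviolet light, and were 8 to 12 weeks old. Controls carried K5Cre, a Cre recombinase named for the promoter of keratin 5, which is active in basal keratinocytes. Knockouts, labelled C/EBPB -/-, lacked C/EBPβ in the epidermis only. The labels name neither the targeted allele nor the Cre of the knockouts. Each genotype was sampled either without exposure or 6 h after 100 mJ/cm2 of UVB, and epidermis was freed from the skin by heat shock.

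C/EBPβ, the product of Cebpb, belongs to the basic leucine zipper transcription factors, and keratinocytes use it during differentiation and after stress. UVB damages the DNA of keratinocytes and activates p53, which drives the arrest and repair genes, and the mitogen-activated kinases, which drive the AP-1 factors of the Fos, Jun and Atf families. Stressed keratinocytes also make a set of small proteins that reinforce the cornified envelope, the dead outer shell of the skin, among them the small proline-rich (Sprr2) and late cornified envelope (Lce3) proteins.

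Libraries held 33 to 53.3 M counts. Cebpb, the targeted gene, stood at 186, 160.1, 164 and 155 CPM (counts as a share of the scaled library total) in unexposed controls and at 253, 305, 286 and 319.7 CPM in exposed controls. Cebpb was at 0.702, 0.177, 0.543 and 0.875 CPM in unexposed knockouts and at 2.52, 3.04, 0.609 and 1.56 CPM in exposed knockouts. Every knockout library was far below every control library. The keratinocyte genes Krt5 (266 to 1292 CPM), Krt10 (6487 to 29233 CPM) and Lor (5884 to 18058 CPM) were high in all 16 libraries. The Langerhans cell gene Cd207 (7.32 to 45.3 CPM) and the T cell gene Cd3e (3.10 to 14.4 CPM) were detected in all 16, while the neutrophil gene Ly6g (0 to 0.0915 CPM) and the adipocyte gene Adipoq (0 to 0.0304 CPM) were at or near 0. The groups also differed in general properties. After UVB, 16984 to 19299 genes were detected at equal depth in controls and 19201 to 21521 in knockouts, and mitochondrial counts made up 5.24 to 9.65% and 5.44 to 5.99% of those libraries. Whether these properties take part in the differences below was not tested. The labels do not say which libraries came from separate animals, so every p-value below rests on the spread between libraries alone.

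Most of the UVB response had the same direction in both genotypes. By edgeR, at an adjusted p under 0.05, 6343 genes (35.8% of those tested) changed with UVB in controls, of which 3146 (17.7%) rose and 3197 (18%) fell. In knockouts 5710 (32.2%) changed, of which 3207 (18.1%) rose and 2503 (14.1%) fell. Of the genes called in both genotypes, 2521 (14.2% of those tested) rose in both, 1992 (11.2%) fell in both, and 1, Tnxa, went in opposite directions. Tnxa, at under 2 CPM in all libraries, stood at 2.93 in controls and at -2.47 in knockouts (log2 changes). Both of its calls were lost when single libraries were left out: the control call without unexposed control 1 (adjusted p = 0.0624) or 3 (0.0656) or exposed control 3 (0.0506), and the knockout call without any of the unexposed knockouts (0.0533 to 0.103) or exposed knockout 1 (0.109), 2 (0.0671) or 4 (0.0942). Across the 13193 genes that averaged 1 CPM or more, the 2 log2 responses had a Pearson r of 0.849 and a Spearman rho of 0.856, as a description over genes, which are not independent replicates. Over all 17741 tested genes r was 0.633 and rho 0.691.

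**Figure D1:**
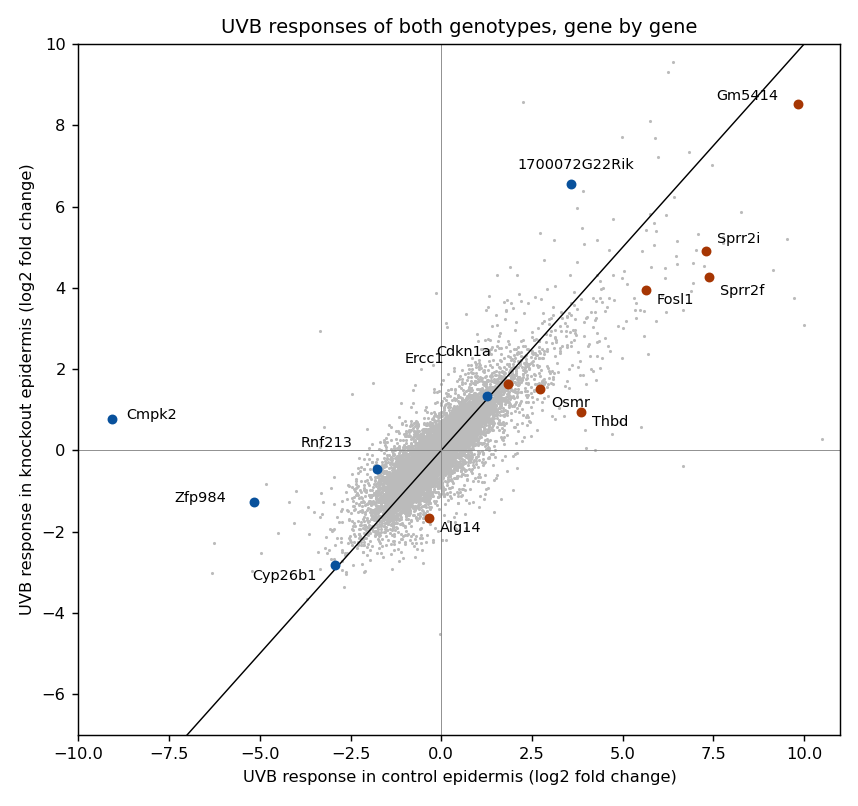
UVB response in knockout epidermis (vertical axis, log2 fold change) against the response in control epidermis (horizontal axis, log2 fold change). Points are the 13193 genes that averaged 1 CPM or more, fitted over 4 libraries in each of 4 groups. The line marks equal responses, named genes are coloured red where the knockout change was the more negative and blue where it was the more positive, and the points follow the line with Sprr2i, Sprr2f and Fosl1 below it and Cmpk2 far above it.

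No single gene passed the test for a different response. With edgeR's quasi-likelihood test 0 of 17741 genes (0.0%) were called higher and 0 (0.0%) lower, and the smallest adjusted p was 0.114, for Osmr. At an unadjusted p under 0.05 there were 1043 genes (5.88%), of which 608 (3.43%) had the more positive response in knockouts and 435 (2.45%) the more negative. The same test by limma voom also gave 0 calls and 1197 genes at that unadjusted level. DESeq2 called 31 genes, 6 (0.0338%) higher and 25 (0.141%) lower, with 1151 at the unadjusted level. Which genes DESeq2 called depended on single libraries: its count was 20 without unexposed control 2, 19 without unexposed control 4, 100 without exposed control 2, 48 without exposed control 4 and 56 without exposed knockout 4, and 21 to 38 without each of the others. Of the 31, 14 were called in every one of the 16 fits that left out 1 library: Osmr, Sprr2e, Sprr2f, Sprr2i, Fosl1, Atf3, Alg14, Nptx2, Gm42743 and Gm43388 lower, and Cmpk2, Trpv1, Zfp984 and 1700072G22Rik higher. The gene values below are therefore given with the interval of the difference, and none of them is a call by edgeR.

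Read the other way, the difference is the change in the gap between genotypes. Without UVB 171 genes (0.964%) were called higher and 202 (1.14%) lower in knockouts than in controls, and after UVB 418 (2.36%) and 412 (2.32%). These counts moved by more than 1.5 times when single libraries were left out, from 67 to 214 and 63 to 229 without UVB and from 229 to 831 and 190 to 667 after it. The lowest came without unexposed control 4 (67), unexposed control 3 (63) and exposed knockout 2 (229 and 190), and the highest after UVB without exposed control 2 (831) and unexposed knockout 4 (667).

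The interval of the difference lay within 1 log2 unit of 0, which is a difference of less than 2-fold, for 7489 genes (42.2%). Among the 2521 genes that rose in both genotypes 1951 (77.4%) had such an interval, and among the 1992 that fell in both 1433 (71.9%). Genes called in 1 genotype only were not thereby different: of 624 that rose in controls alone 127 (20.4%) had an unadjusted p under 0.05 for the difference, of 1205 that fell in controls alone 305 (25.3%), of 686 that rose in knockouts alone 81 (11.8%) and of 510 that fell in knockouts alone 53 (10.4%). These classes were drawn from the same libraries as the difference, so their counts are a description.

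Where the responses did diverge, the strongest shared responses were the smaller ones in knockouts. Genes were ranked by the mean of both responses. For the 100 highest, the median log2 change was 5.37 in controls and 4.31 in knockouts, and the difference was below 0 for 76 of the 100, with a median of -0.95. The genotype gap (knockout against control) of these 100 genes had a median of 0.40 without UVB and of -0.30 after it. For the next 400 genes the median difference was -0.27, with 66.0% below 0, and for the 1500 after those it was -0.03. Among the 100 lowest, the genes that fell most, the medians were -2.63 and -2.26, and the difference was below 0 for 31 of them, against 43.3% of all 13193. Leaving out any single library kept the median of the 100 highest between -1.18 and -0.70. The count of 31 among the 100 lowest was less steady, from 21 (without exposed knockout 2) to 40 (without unexposed control 3).

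**Figure D2:**
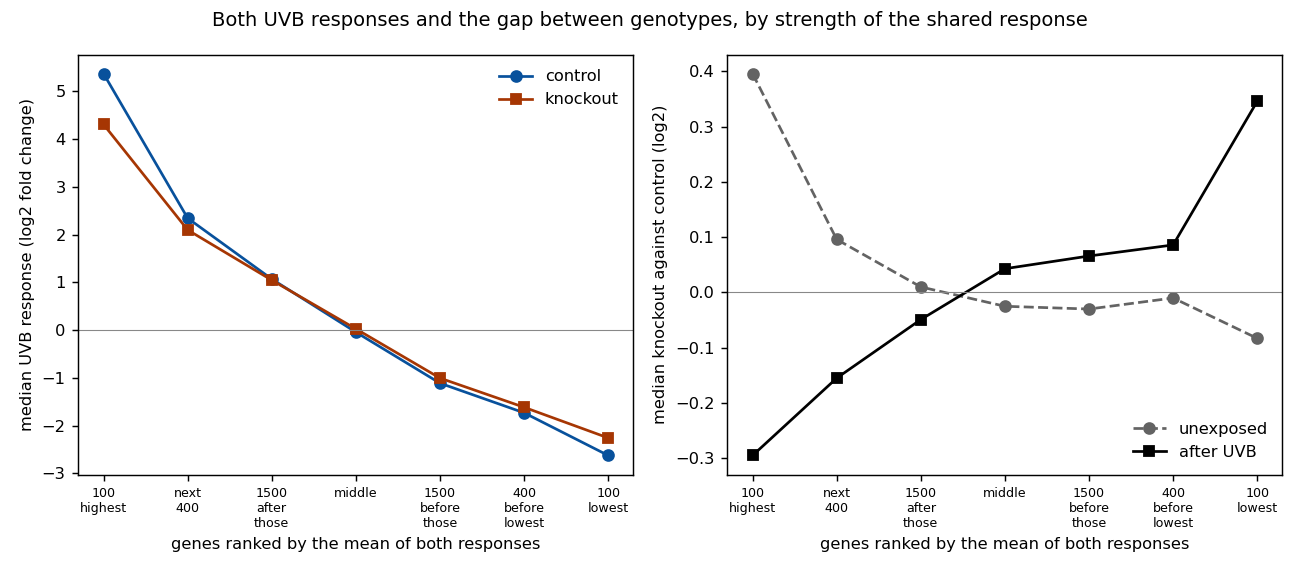
Left, median log2 UVB response in controls (circles) and knockouts (squares); right, median log2 gap of knockout against control without UVB (dashed) and after it (solid), for genes averaging 1 CPM or more, ranked by the mean of both responses (horizontal axis, in bins). The responses part only in the outer bins, 5.37 against 4.31 for the 100 highest, and in that bin the gap moves from 0.40 to -0.30.

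The family with the most DESeq2 calls was Sprr2 (5), whose small proline-rich proteins are cross-linked into the cornified envelope. The 3 promoters shown are those of the Sprr2 genes that DESeq2 called in every fit with 1 library left out. They are the 250 bases before each start in RefSeq (GRCm38.p6, plus strand), 5′ to 3′, for Sprr2e (chr3:92351893-92352142), Sprr2f (chr3:92364937-92365186) and Sprr2i (chr3:92407741-92407990). Capitals mark TGANTCA, the letters of the AP-1 site, and in Sprr2i also a match to TTGCNNAA, the letters of a C/EBP site, which lies on the other strand and so is printed as its reverse complement.
Sprr2e: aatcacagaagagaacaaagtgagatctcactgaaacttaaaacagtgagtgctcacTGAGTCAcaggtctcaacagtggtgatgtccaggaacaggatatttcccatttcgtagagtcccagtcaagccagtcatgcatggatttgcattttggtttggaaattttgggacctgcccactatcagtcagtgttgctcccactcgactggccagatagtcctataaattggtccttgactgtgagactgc
Sprr2f: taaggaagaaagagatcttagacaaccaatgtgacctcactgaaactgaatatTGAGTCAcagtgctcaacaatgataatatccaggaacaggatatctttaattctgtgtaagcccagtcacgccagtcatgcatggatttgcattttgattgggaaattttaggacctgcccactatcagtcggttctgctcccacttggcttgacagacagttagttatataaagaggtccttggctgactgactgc
Sprr2i: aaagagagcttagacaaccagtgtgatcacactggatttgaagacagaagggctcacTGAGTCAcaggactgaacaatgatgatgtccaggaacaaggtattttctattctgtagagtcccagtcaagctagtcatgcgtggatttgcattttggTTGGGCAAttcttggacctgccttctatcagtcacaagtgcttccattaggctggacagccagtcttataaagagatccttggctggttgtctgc
The AP-1 letters began at -193, -197 and -193 from the start, and the C/EBP letters in Sprr2i at -95. In windows from 250 bases before to 50 after the start, read on both strands, TGANTCA stood in 7 of 9 Sprr2 promoters (77.8%) and in 7.81% of all 32851 promoters. TTGCNNAA stood in 1 of the 9 and in 10.8% of all promoters. These matches are a description of the letters and do not show binding. Neighbouring Sprr2 copies are near-identical, so they are not independent and the counting may have shared reads among them.

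Sprr2i without UVB stood at 4.94, 3.06, 3.67 and 2.04 CPM in controls and at 24.9, 18.3, 10.3 and 11.2 CPM in knockouts. After UVB it stood at 631, 659.9, 496 and 365 CPM in controls and at 306, 539, 446 and 672 CPM in knockouts. All 4 unexposed knockouts were above all 4 unexposed controls, and the exposed groups overlapped. Sprr2i rose 158-fold in controls and 30.2-fold in knockouts (edgeR adjusted p = 1.18e-08 and 3.03e-07), a log2 difference of -2.38 (SE 0.47) with a 95% interval of -3.37 to -1.39 (unadjusted p = 1.3e-04, adjusted p = 0.328 by edgeR, 0.00245 by DESeq2).

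Sprr2f repeated this with 2.68, 0.989, 0.516 and 2.18 CPM in unexposed controls against 23.1, 13.7, 7.06 and 7.75 CPM in unexposed knockouts. Its exposed levels were 274, 359.6, 255 and 204 CPM in controls and 138, 321, 192 and 352 CPM in knockouts. Again the groups were apart before UVB and overlapped after it. The difference was -3.12 (SE 0.70), with an interval of -4.62 to -1.61 (edgeR adjusted p = 0.504, DESeq2 0.00575). For Sprr2e the 2 responses were 5.92 and 3.18, and the difference -2.73 (SE 0.59). After UVB Sprr2e stood at 276, 301, 178 and 153 CPM in controls and at 84.7, 126, 90 and 132 CPM in knockouts, without overlap, against 5.79, 3.81, 1.7 and 3.6 CPM and 21.4, 12.3, 8.17 and 5.47 CPM before it, where the groups overlapped. For Sprr2d the responses were 4.38 and 2.03, and the difference -2.35 (SE 0.56).

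Of 10 Sprr2 genes tested, 8 rose with UVB in each genotype, 9 had a difference below 0, 7 of them at an unadjusted p under 0.05, and 5 were called by DESeq2. Over all tested genes 17.7% rose in controls and 18.1% in knockouts, and 45.4% had a difference below 0. At that unadjusted level 2.45% of all genes were lower, and DESeq2 called 0.141% lower. The Sprr2 family was singled out by its calls for this same difference, so its counts beside these shares are a description only. The family's median response was 5.25 in controls and 3.36 in knockouts. Its median gap was 1.93 without UVB and -0.23 after UVB (log2), but the members did not end alike. Without UVB the knockouts were above all controls for 5 of the 10 (Sprr2a3, Sprr2d, Sprr2f, Sprr2g and Sprr2i), and the groups of the other 5 overlapped. After UVB the knockouts were below all controls for 2 (Sprr2b and Sprr2e), above all controls for 2 (Sprr2a2 and Sprr2a3), and overlapped with them for 6. Another family, Lce3, codes for envelope proteins made in stressed and psoriatic skin. All 6 tested Lce3 genes rose in both genotypes, all 6 had a difference below 0, and 5 of them at an unadjusted p under 0.05. The Lce3 median response was 6.48 in controls and 4.01 in knockouts, and its median gap was 0.93 without UVB and -1.35 after it. The median difference was -2.46 for Lce3 and -2.22 for Sprr2, with 1 and 5 members called by DESeq2, and the families were not tested against each other. Without UVB the groups overlapped for all 6 Lce3 genes, and after UVB the knockouts were below all controls for 4 (Lce3a, Lce3b, Lce3d and Lce3e). How many of all tested genes had groups without overlap was not counted, so these counts have no background beside them.

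Lce3a stood at 2.41, 0.965, 0.728 and 0.983 CPM in unexposed controls and at 6.07, 2.53, 2.31 and 1.34 CPM in unexposed knockouts. Lce3a reached 175, 210.1, 152 and 99.2 CPM in exposed controls and 35.2, 67.4, 44.7 and 68.1 CPM in exposed knockouts. The exposed groups did not overlap and the unexposed groups did. Its rise was 124-fold in controls and 17.3-fold in knockouts (edgeR adjusted p = 7.56e-07 and 2.74e-05), a difference of -2.84 (SE 0.65) with an interval of -4.23 to -1.44 (adjusted p = 0.504, DESeq2 0.012).

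Lce3d, chosen after its values were seen, had 679, 725, 551 and 465 CPM in exposed controls and 150.3, 148, 121 and 189 CPM in exposed knockouts. Its unexposed libraries held 4.17, 2.52, 3.76 and 0.874 CPM in controls and 10.8, 2.49, 2.01 and 2.19 CPM in knockouts. Its exposed knockouts were all below its exposed controls, and its unexposed groups overlapped. Lce3d differed by -2.66 (SE 0.77) (edgeR unadjusted p = 0.00467, adjusted p = 0.662). Cnfn, which codes for the envelope protein cornifelin, rose 4.24-fold in controls and 2.47-fold in knockouts (edgeR adjusted p = 2.72e-09 and 1.05e-06), with a difference of -0.78 (SE 0.20). The levels of Cnfn were 441, 357, 369 and 339.5 CPM in unexposed controls, 682, 466, 669 and 588 CPM in unexposed knockouts, 1573, 1795, 1521 and 1499.8 CPM in exposed controls and 1266, 1489, 1504 and 1678 CPM in exposed knockouts. Its unexposed groups did not overlap and its exposed groups did.

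The wider list of 30 tested stress keratinocyte genes (Krt6a, Krt6b, Krt16, Krt17, S100a8, S100a9, the Sprr2 and Lce3 genes of the list and others) had a median difference of -1.16, against 0.05 over all tested genes. Of the 30, 24 rose in each genotype, against 17.7% and 18.1% of all genes, and 24 had a difference below 0, against 45.4%. An unadjusted p under 0.05 was reached by 14, all of them lower in knockouts, against 2.45% of all genes. Sprr2 and Lce3 genes already counted above are among the members, so the list is not separate from those families. Leaving out single libraries kept the median between -1.47 and -1.02 and that count between 11 and 18. The mean log2 level of the list was 3.49 ± 0.47 in unexposed controls, 4.27 ± 0.47 in unexposed knockouts, 7.04 ± 0.37 in exposed controls and 6.66 ± 0.32 in exposed knockouts (SD, n = 4). Of its 24 matched promoters, from 23 genes, 7 (29.2%) held TGANTCA and 7 (29.2%) held TTGCNNAA. Over all 32851 promoters the shares were 7.81% and 10.8%. In bulk tissue, fewer cells of a type and less RNA per cell cannot be told apart.

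**Figure D3:**
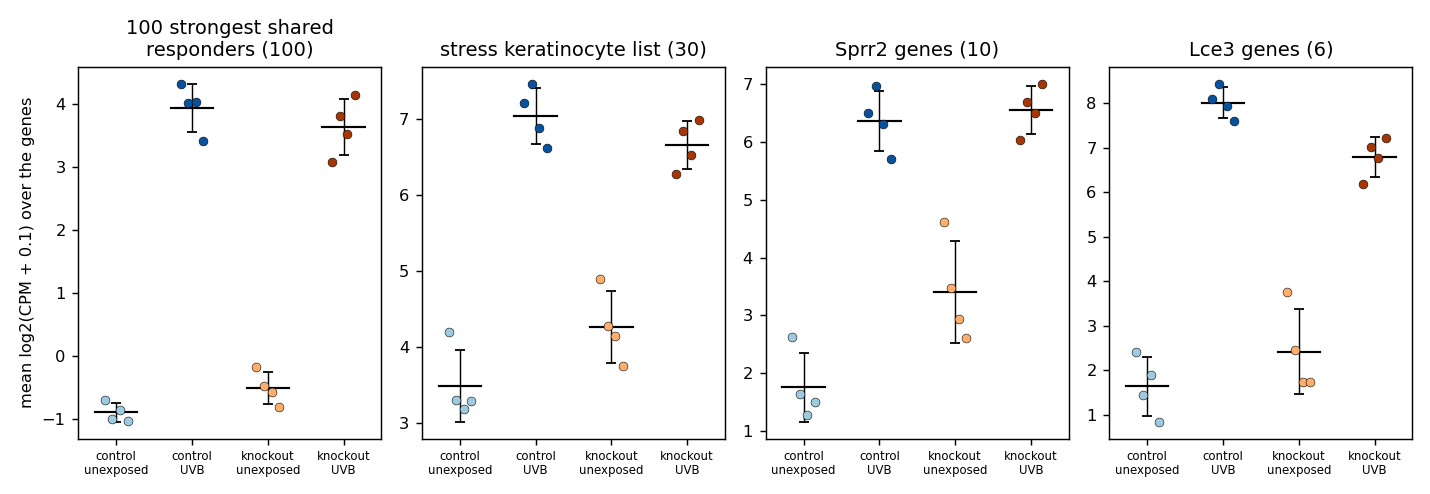
Mean of log2(CPM + 0.1) over the genes of 4 sets (vertical axis) in each library, by group, with the mean (line) and SD (bar) of 4 libraries; the number of genes is in each title. After UVB the mean over the Sprr2 genes is 6.37 in controls and 6.56 in knockouts, a mean over members that end higher, lower or overlapping, and that over the Lce3 genes is 8.01 and 6.79.

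Among AP-1 factors, Fosl1 and Atf3 also started higher in knockouts. Fosl1, which codes for the Fos family member Fra-1, stood at 2.79, 4.26, 4.25 and 1.88 CPM in unexposed controls and at 11, 4.85, 9.43 and 8.03 CPM in unexposed knockouts. Fosl1 reached 188, 156, 158 and 146 CPM in exposed controls and 88.3, 148, 101 and 176 CPM in exposed knockouts. The unexposed groups did not overlap and the exposed groups did. It rose 49.5-fold and 15.4-fold (edgeR adjusted p = 2.5e-09 and 8.32e-08), a difference of -1.69 (SE 0.39) with an interval of -2.50 to -0.87 (adjusted p = 0.504, DESeq2 0.00436).

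Atf3, an early stress factor of the ATF family, held 2.87, 5.72, 4.03 and 3.37 CPM in unexposed controls and 35.2, 8.9, 13.5 and 12.7 CPM in unexposed knockouts. Atf3 held 53.7, 28.3, 40.6 and 29 CPM in exposed controls and 30.3, 40.4, 28.4 and 47 CPM in exposed knockouts. Every unexposed knockout was above the unexposed controls, knockout 1 by the most, and the exposed groups overlapped. Atf3 rose 9.48-fold in controls (edgeR adjusted p = 1.13e-05). Its rise in knockouts was 2.07-fold (adjusted p = 0.0371), and that call ended in 9 of the 16 fits with 1 library left out (unexposed control 3, unexposed knockout 2, 3 or 4, exposed control 2, 3 or 4, exposed knockout 2 or 4), with adjusted p-values of 0.0521 to 0.143. Without unexposed knockout 1 its log2 change in knockouts was 1.64 instead of 1.05. The difference was -2.20 (SE 0.52), with an interval of -3.31 to -1.09 (adjusted p = 0.504, DESeq2 0.00355).

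The immediate early and AP-1 list held 27 tested genes. In controls 23 of them rose and in knockouts 15, against 17.7% and 18.1% of all genes. The difference was below 0 for 23 of them, against 45.4% of all genes, with a median of -0.21 that lay between -0.36 (without exposed knockout 4) and -0.07 (without unexposed knockout 1) when single libraries were left out. An unadjusted p under 0.05 was reached by 6, Fosl1, Atf3, Fosb, Jund, Klf4 and Nr4a3, all with the smaller response in knockouts. Of all genes 2.45% were lower at that level, and 2 of the 6 were called by DESeq2. The count of 6 fell to 3 without unexposed control 4 or exposed knockout 1. The 10 MAP kinase phosphatases, which end kinase signalling, had 8 members that rose in each genotype, a median difference of -0.25 (-0.37 to -0.11 when single libraries were left out, the last without unexposed knockout 1) and none at an unadjusted p under 0.05.

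Among receptors and ligands, Osmr was the gene with the smallest p for the difference. It codes for the receptor subunit that keratinocytes use to sense oncostatin M and interleukin 31. Osmr stood at 24.9, 25.5, 28.9 and 26.2 CPM in unexposed controls and at 42.4, 40, 35.6 and 44.6 CPM in unexposed knockouts. Exposed, it stood at 194, 176, 189 and 139 CPM in controls and at 85.6, 114, 114 and 146 CPM in knockouts. The knockouts started above every control and ended below the exposed controls, except that the highest exposed knockout was above the lowest exposed control. Osmr rose 6.61-fold in controls and 2.83-fold in knockouts (edgeR adjusted p = 3.52e-10 and 3.3e-07). The difference was -1.22 (SE 0.20), with an interval of -1.65 to -0.80 (unadjusted p = 6.45e-06, adjusted p = 0.114 by edgeR, 1.8e-04 by DESeq2). EdgeR called it when exposed control 4 (adjusted p = 0.0338) or exposed knockout 4 (0.016) was left out, and when genes were not filtered on low counts (0.0291).

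Hbegf, a ligand of the epidermal growth factor receptor, had 28.6, 30, 26.8 and 25.5 CPM in unexposed controls and 87.4, 41.7, 43.5 and 72.1 CPM in unexposed knockouts. Its exposed levels were 239.7, 172, 214 and 215 CPM in controls and 117, 180.2, 162 and 262 CPM in knockouts. Only the unexposed groups stood apart. Hbegf rose 7.58-fold in controls and 2.95-fold in knockouts (edgeR adjusted p = 8.07e-08 and 4.98e-05), a difference of -1.36 (SE 0.33) with an interval of -2.05 to -0.68 (adjusted p = 0.504, DESeq2 0.0155). Nrg1, which codes for the ligand neuregulin 1, rose by 2.40 and 1.62 on the log2 scale (edgeR adjusted p = 7.55e-08 and 7.29e-06), and its difference was -0.78 (SE 0.29). These were the only members at an unadjusted p under 0.05 among 13 genes of the EGF receptor and its ligands, whose median difference was -0.30 (-0.37 to -0.12 when single libraries were left out, the last without exposed control 4). At that level 2.45% of all genes were lower.

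Il24, a cytokine of the interleukin 10 family, was higher in knockouts at both ends. It was at 0, 0, 0 and 0.091 CPM in unexposed controls and at 1.49, 0.531, 0.322 and 0.187 CPM in unexposed knockouts. Il24 then stood at 1.66, 1.24, 1.52 and 1.29 CPM in exposed controls and at 4.64, 8.12, 4.47 and 10.6 CPM in exposed knockouts, with no overlap between genotypes before or after UVB. Its log2 change was 5.59 (SE 0.85) in controls (edgeR adjusted p = 2.76e-05) and 3.44 (SE 0.66) in knockouts (3.82e-04), but the control change rests on the 1 unexposed control with any counts: without that library it was 8.99. The difference of -2.16 (SE 1.02) had an interval of -4.29 to -0.03 (unadjusted p = 0.0475, adjusted p = 0.844).

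**Figure D4:**
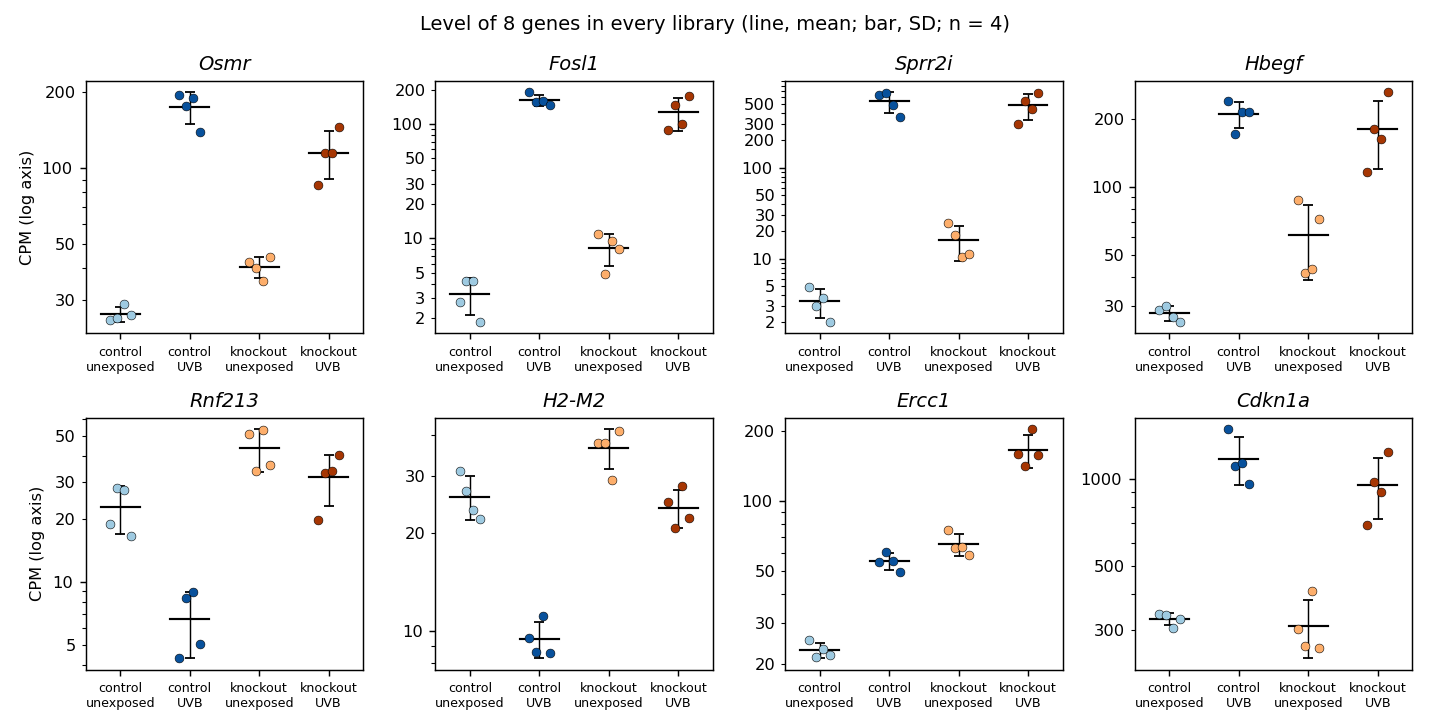
CPM (log axis) of 8 genes in each of the 16 libraries, by group, with the mean (line) and SD (bar) of 4 libraries. Osmr, Fosl1, Sprr2i and Hbegf start higher in knockouts and rise less, Rnf213 and H2-M2 are lowest in exposed controls, and Ercc1 and Cdkn1a rise in both genotypes, Ercc1 from a higher level in knockouts.

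Several other genes among those with the smallest p started higher in knockouts. Serpinb1a codes for an inhibitor of neutrophil elastase-type proteases and held 1.6, 1.15, 2.09 and 1.09 CPM in unexposed controls against 9.71, 7.41, 5.47 and 4.28 CPM in unexposed knockouts. Exposed, it held 19.2, 18.6, 16.4 and 13.3 CPM in controls and 12.6, 24.7, 11.5 and 29.2 CPM in knockouts. Its unexposed groups did not overlap and its exposed groups did. Serpinb1a rose 11.4-fold in controls and 2.89-fold in knockouts (edgeR adjusted p = 1.37e-07 and 5.25e-04), a difference of -1.98 (SE 0.43) (adjusted p = 0.328).

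Gjb1, which codes for the gap junction protein connexin 32, had 0.746, 1.13, 0.485 and 0.583 CPM in unexposed controls and 2.19, 1.93, 1.73 and 2.62 CPM in unexposed knockouts. Gjb1 reached 16.5, 19.6, 14.5 and 7.44 CPM in exposed controls and 8.53, 10.2, 9.59 and 14.3 CPM in exposed knockouts. As with Serpinb1a, only the unexposed groups were apart. It rose 19.6-fold and 5.04-fold (edgeR adjusted p = 1.27e-08 and 8.25e-06), a difference of -1.96 (SE 0.43) (adjusted p = 0.328). Rab31, a small GTPase of membrane traffic, rose by 1.61 in controls and 0.67 in knockouts (log2; edgeR adjusted p = 2.92e-07 and 0.00272), and its genotype gap was 1.01 without UVB and 0.06 after it.

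Nptx2, a neuronal pentraxin at low counts, had a log2 change of 4.92 (SE 0.78) in controls (edgeR adjusted p = 4.74e-05) and of 0.69 (SE 0.65) in knockouts (0.479), a difference of -4.23 (SE 0.98). Its mean was 0.119 ± 0.0843 CPM in unexposed controls, 1.14 ± 0.941 in unexposed knockouts, 3.81 ± 1.91 in exposed controls and 1.85 ± 0.585 in exposed knockouts (SD, n = 4). The predicted gene Gm42743 rose by 2.65 in controls (edgeR adjusted p = 1.13e-06) and stood at 0.50 in knockouts (0.184). It was higher in knockouts at both ends, by 3.62 without UVB and 1.48 after it, and the difference was -2.15 (SE 0.40) (adjusted p = 0.251, and 0.0336 without a filter on low counts).

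Trem1, an activating receptor of neutrophils and monocytes, was at 0 in all 4 unexposed controls and at 0.424, 0.0177, 0.201 and 0 CPM in unexposed knockouts. Trem1 was at 2.05, 2.49, 3.65 and 3.13 CPM in exposed controls and at 0.677, 1.53, 1.71 and 1.83 CPM in exposed knockouts, with every exposed control above every exposed knockout. Against a floor of 3 counts per library its mean in exposed controls was at least 40.2-fold higher than in unexposed controls. It rose in knockouts by 3.09 (SE 0.87) (edgeR adjusted p = 0.0106). DESeq2 gave an adjusted p of 0.0155 for the difference and edgeR 0.504. All 12 neutrophil genes of the list, of which 4 were tested, summed to 10.4 to 16.8 CPM in controls without UVB and 18.8 to 39.4 CPM with it. In knockouts they summed to 19.6 to 30.1 and 26.5 to 46.5 CPM, with Ly6g at or near 0 and Fpr2 at 0 in all libraries. The part of these cells in the Trem1 values was not tested.

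Another pattern was a gap between genotypes that was larger after UVB than before it. Alg14, a subunit of the enzyme that builds N-linked sugar chains, stood at 23.6, 26.8, 33.5 and 30.1 CPM in unexposed controls and at 21.2, 17, 23.9 and 27.1 CPM in unexposed knockouts. Alg14 after UVB stood at 17.5, 18.5, 30.9 and 22.7 CPM in controls and at 7.72, 7.62, 7.37 and 5.5 CPM in knockouts. The unexposed groups overlapped, and every exposed knockout was at under 8 CPM while every exposed control was above 17 CPM. Alg14 fell by 1.66 in knockouts (log2; edgeR adjusted p = 2.88e-06), while its change in controls was -0.35 (SE 0.19) (0.176). The difference was -1.31 (SE 0.27), with an interval of -1.88 to -0.74 (adjusted p = 0.312, DESeq2 0.0043).

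Hacd2 codes for a dehydratase of long fatty acid synthesis and held 109, 111, 111 and 108 CPM in unexposed controls and 70.3, 74.3, 79.9 and 118 CPM in unexposed knockouts. In exposed tissue it held 126, 143, 159 and 203 CPM in controls and 69.1, 61, 61.8 and 70.2 CPM in knockouts. The exposed groups were far apart, the lowest exposed control above the highest exposed knockout. Hacd2 rose by 0.53 in controls (edgeR adjusted p = 0.0107), a call lost without exposed control 4 (0.38, adjusted p = 0.0566), and its change in knockouts was -0.38 (SE 0.15) (0.0638). The difference was -0.91 (SE 0.22), with an interval of -1.37 to -0.46 (adjusted p = 0.504, DESeq2 0.0322).

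Rasgef1b, an exchange factor for Ras-type GTPases, stood at 49.3, 48.5, 50.6 and 50.7 CPM in unexposed controls and at 39.1, 41.9, 37.5 and 50.4 CPM in unexposed knockouts. Rasgef1b stood at 71.2, 70.9, 82.8 and 62.8 CPM in exposed controls and at 39.8, 39.2, 41.3 and 38.1 CPM in exposed knockouts, without overlap. It rose by 0.53 in controls (edgeR adjusted p = 0.00134), its change in knockouts was -0.09 (SE 0.12), and the difference was -0.62 (SE 0.17) (adjusted p = 0.57). Rel, the NF-kB subunit c-Rel, had 63.7, 71.8, 82.5 and 85.2 CPM in exposed controls and 53.9, 49.7, 37.3 and 53.1 CPM in exposed knockouts. Before UVB, Rel had 36.3, 41.6, 44 and 39.7 CPM in controls and 42.9, 34.8, 47.3 and 41.4 CPM in knockouts. Its exposed groups did not overlap and its unexposed groups did. Rel rose by 0.91 in controls (edgeR adjusted p = 3.69e-05), its change in knockouts was 0.22 (SE 0.14), and the difference was -0.69 (SE 0.20). Bcl3, an NF-kB cofactor, rose by 2.58 and 1.64 (edgeR adjusted p = 9.93e-09 and 2.1e-06). It differed from Rasgef1b and Rel in that edgeR called it higher in knockouts without UVB. That call was lost without unexposed control 2, 3 or 4 or unexposed knockout 1, 2 or 3 (log2 gap 0.67 to 0.83, adjusted p 0.0592 to 0.137). The list of 18 NF-kB subunits and feedback genes as a whole had a median difference of 0.01, with 2 members at an unadjusted p under 0.05 in each direction. At that level 3.43% of all genes were higher and 2.45% lower. The 2 with the more positive response were lost with upper-quartile scaling, by DESeq2 and without unexposed control 1 or 3, unexposed knockout 4 or exposed control 1, and the count of lower members was 4 without exposed knockout 4.

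Thbd codes for thrombomodulin, an anticoagulant surface protein that keratinocytes make. It had 0.483, 1.79, 2.73 and 1.8 CPM in unexposed controls and 0.163, 0.319, 0.905 and 0.5 CPM in unexposed knockouts. Exposed, Thbd had 15.7, 50.9, 17.2 and 13.6 CPM in controls and 0.31, 0.302, 1.41 and 1.58 CPM in knockouts. The lowest exposed control was above the highest exposed knockout by a wide margin, and exposed control 2 was far above the other 3. Thbd rose by 3.85 in controls (edgeR adjusted p = 5.29e-04), its change in knockouts was 0.94 (SE 0.71) (0.365), and the difference was -2.90 (SE 0.97) with an interval of -4.97 to -0.83 (unadjusted p = 0.00917, adjusted p = 0.76). Sgpp2, a phosphatase of sphingosine 1-phosphate, was lower in knockouts, with a gap of -3.52 without UVB and -4.04 after it (log2), and its difference of response was -0.52 (SE 0.48).

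The genes with the more positive response in knockouts were mostly ones that fell with UVB in controls and fell less, or did not pass the test, in knockouts. Interferon-induced genes were among them. Cmpk2, a mitochondrial nucleotide kinase induced by interferon, stood at 0.373, 1.32, 3.31 and 1.06 CPM in unexposed controls and at 0 in all 4 exposed controls. Cmpk2 stood at 4.9, 0.442, 4.02 and 0.781 CPM in unexposed knockouts and at 1.41, 2.64, 3.96 and 9.37 CPM in exposed knockouts. Only the exposed controls were without counts, and the other 3 groups overlapped. Against a floor of 3 counts per library, the exposed knockout mean was at least 50-fold higher than that of exposed controls, and the unexposed control mean at least 17.4-fold higher. Cmpk2 fell in controls (edgeR adjusted p = 2e-04) and its log2 change in knockouts was 0.77 (SE 0.77) (0.517). The difference had an unadjusted p of 4.42e-05 and an adjusted p of 0.261 by edgeR and of 1.61e-05 by DESeq2.

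Rnf213, a large interferon-induced ubiquitin ligase, held 18.9, 28.1, 27.4 and 16.6 CPM in unexposed controls and 4.3, 8.33, 8.89 and 5.04 CPM in exposed controls. In knockouts Rnf213 held 51.2, 34, 53.6 and 36.2 CPM unexposed and 19.8, 33.3, 33.9 and 40.3 CPM exposed. The exposed controls were below every other library, whereas the knockout groups overlapped. Rnf213 fell by 1.77 in controls (log2; edgeR adjusted p = 2.36e-05), its change in knockouts was -0.46 (SE 0.25) (0.184), and the difference was 1.32 (SE 0.36) with an interval of 0.57 to 2.06 (adjusted p = 0.571).

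Rsad2, which codes for the antiviral enzyme viperin, had 3.77, 10.3, 15.4 and 8.61 CPM in unexposed controls and 1.5, 2.06, 0 and 0 CPM in exposed controls. In knockouts it had 43.9, 13.8, 43.3 and 29.2 CPM unexposed and 8.22, 20.7, 42.8 and 65.1 CPM exposed. It varied widely within every group. Rsad2 fell by 3.34 in controls (edgeR adjusted p = 0.0191; limma voom gave -5.37 and 0.124), its change in knockouts was 0.07 (SE 0.85), and the difference of 3.41 (SE 1.29) had an interval of 0.60 to 6.22.

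Other members of the same list were high in knockouts, and no difference of their response was detected. Mx1, an antiviral GTPase, stood at 4.19, 3.7, 4.97 and 3.09 CPM in unexposed controls, 22.7, 15, 17.2 and 12.5 CPM in unexposed knockouts, 8.54, 5.54, 4.02 and 6.74 CPM in exposed controls and 14.1, 22.1, 31.3 and 45.4 CPM in exposed knockouts. Every knockout library was above every control library. The difference of response of Mx1 was 0.10 (SE 0.42), with an interval of -0.77 to 0.97. For Isg15, a ubiquitin-like modifier, it was 0.13 (SE 0.76) with an interval of -1.51 to 1.78, and for Irf7, a master factor of the interferon response, 0.01 (SE 0.51) with an interval of -1.09 to 1.10. The intervals of Isg15 and Irf7 reach beyond a 2-fold difference in either direction. A difference of that size is therefore not excluded for them.

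Over the 66 tested type I interferon response genes the median log2 change with UVB was -0.46 in controls, where 3 rose and 21 fell, and 0.02 in knockouts, where 5 rose and 2 fell. Among all genes 17.7% rose and 18% fell in controls, and 18.1% and 14.1% did in knockouts. The median difference was 0.48, against 0.05 over all genes, and 56 of the 66 differences were above 0, against 54.6% of all genes. An unadjusted p under 0.05 was reached by 8 with the more positive response in knockouts (Cmpk2, Rsad2, Sp100, Tap1, Dtx3l, Parp10, Rnf213 and Psmb9) and by 1 with the more negative (Isg20). Of all genes 3.43% and 2.45% reached that level in these directions. The median gap between genotypes was 1.24 without UVB and 1.90 after it. The count of 8 rested on single libraries: it was 4 without exposed control 1, 22 without exposed control 2, 12 without exposed knockout 1, and 5 without unexposed control 3, unexposed knockout 4 or exposed knockout 3 or 4, with upper-quartile scaling and with a filter of at least 1 CPM in 4 libraries, while the median stayed between 0.23 and 0.70 over all of these fits. The series' title names the interferon response, so the list is not independent of these samples. The core of the interferon-stimulated response element, GAAA and a further GAAA with 2 bases between them (10 bases in all, both strands), stood in 22 of 63 matched promoters of the list (34.9%) and in 3.44% of all promoters. Some genes have several promoters: by gene it was 19 of 51 (37.3%), against 3.99% of all 27025. Of the interferon genes described above, Rsad2 and Isg15 had a match, Cmpk2, Rnf213 and Irf7 had none in this window, and Mx1 was not matched.

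Genes of other functions also fell mainly in controls. H2-M2, a nonclassical MHC class I gene, held 31, 27, 23.7 and 22.1 CPM in unexposed controls and 9.51, 8.65, 11.1 and 8.55 CPM in exposed controls. In knockouts H2-M2 held 37.9, 37.9, 29.2 and 41.3 CPM unexposed and 25, 20.7, 28 and 22.3 CPM exposed. Exposed controls were the lowest of the 4 groups, with no overlap. H2-M2 fell by 1.45 in controls and fell by 0.61 in knockouts (log2; edgeR adjusted p = 6.75e-07 and 0.0042), a difference of 0.85 (SE 0.22) with an interval of 0.39 to 1.30 (adjusted p = 0.564).

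Gpr155, a lysosomal cholesterol sensor, had 19.3, 25.4, 19.5 and 26.4 CPM in unexposed controls and 8.15, 7.76, 7.67 and 8.13 CPM in exposed controls. Its knockout levels were 28.1, 32.7, 26 and 19 CPM unexposed and 22.4, 14.6, 15.7 and 21.1 CPM exposed. The exposed controls were near 8 CPM and below every other library. Gpr155 fell by 1.52 in controls (edgeR adjusted p = 2.69e-06) and fell by 0.52 in knockouts (0.0321). The knockout call was lost without unexposed knockout 1 (-0.49, adjusted p = 0.0743), 2 (-0.41, 0.133) or 3 (-0.53, 0.0564) or exposed knockout 2 (-0.43, 0.122) or 3 (-0.45, 0.0957). The difference was 0.99 (SE 0.26) with an interval of 0.46 to 1.53.

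Prkaa1, the catalytic subunit of the energy sensor AMP-activated kinase, stood at 24, 29.9, 23.9 and 29.9 CPM in unexposed controls and at 8.01, 15.5, 8.4 and 12.4 CPM in exposed controls. In knockouts Prkaa1 stood at 23.6, 23.7, 25.1 and 23.8 CPM unexposed and at 22.1, 16.7, 19.7 and 18.6 CPM exposed. All 4 exposed controls were below all exposed knockouts. It fell by 1.28 in controls (edgeR adjusted p = 1.72e-05), its change in knockouts was -0.32 (SE 0.18) (0.206), and the difference was 0.96 (SE 0.26). Swap70, a signalling protein at the cell membrane, had 2.49, 3.11, 3.62 and 2.36 CPM in exposed controls against 7.93, 7.9, 5.6 and 9.02 CPM in exposed knockouts. Its unexposed levels were 6.95, 5.96, 5.97 and 3.75 CPM in controls and 6.04, 6.78, 4.73 and 4.97 CPM in knockouts, and the exposed controls were below every other library. Swap70 fell by 0.96 in controls (edgeR adjusted p = 0.00643), its change in knockouts was 0.43 (SE 0.26), and the difference was 1.40 (SE 0.37).

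Serpina3h, a serine protease inhibitor, held 7.73, 7.69, 4.57 and 6.19 CPM in exposed controls and 22.1, 18.2, 13.7 and 29.5 CPM in exposed knockouts. Without UVB, Serpina3h held 21.9, 13.1, 11.6 and 22 CPM in controls and 20.4, 23.6, 17.5 and 9.09 CPM in knockouts. Its exposed controls were below all other libraries. It fell by 1.39 in controls (edgeR adjusted p = 8.34e-04), its change in knockouts was 0.24 (SE 0.28), and the difference was 1.63 (SE 0.41). Near-identical Serpina3 copies lie beside it, so its counts are uncertain. The zinc finger gene Zfp984 had 1.14, 3.13, 1.82 and 2.71 CPM in unexposed controls and 0, 0.0458, 0.0304 and 0.174 CPM in exposed controls. In knockouts Zfp984 had 3.69, 3.56, 2.88 and 2.06 CPM unexposed and 1.68, 1.36, 1.03 and 0.981 CPM exposed. Nearly all its counts were gone from exposed controls and not from exposed knockouts. Zfp984 fell by 5.16 in controls (edgeR adjusted p = 9.36e-06), its change in knockouts was -1.27 (SE 0.55) (0.0875), and DESeq2 gave an adjusted p of 0.00355 for the difference of 3.89 (SE 0.87), where edgeR gave 0.365.

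Phldb1, a microtubule anchor at the basal cell surface, fell by 2.04 in controls (edgeR adjusted p = 1.78e-05), and its change in knockouts was -0.58 (SE 0.28). Etv3, an Ets family repressor, fell by 0.78 in controls (edgeR adjusted p = 1.12e-04), and its change in knockouts was -0.10 (SE 0.13). The gap of Etv3 was -0.81 without UVB and -0.13 after it, so that the gap was smaller after UVB. Gadd45a, a growth arrest gene driven by p53 and by stress kinases, went from 73.1, 57.1, 87 and 75.9 CPM to 40.2, 34.3, 44.7 and 32.5 CPM in controls, against 25.7, 27.9, 40.4 and 42.4 CPM and 28.6, 30.8, 26.4 and 32.6 CPM in knockouts. Unexposed controls were above every other library. Gadd45a fell by 0.95 in controls (edgeR adjusted p = 1.66e-04), its change in knockouts was -0.20 (SE 0.17), and the difference was 0.75 (SE 0.24) (adjusted p = 0.69).

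The T cell list had differences of the same sign. Cd3g, a subunit of the T cell receptor complex, had 19.8, 17.1, 21.8 and 21.6 CPM in unexposed controls and 7.32, 11.3, 12.2 and 9.91 CPM in exposed controls, without overlap. In knockouts it had 7.49, 19.3, 14.4 and 13.3 CPM unexposed and 8.86, 21.9, 13.4 and 13.4 CPM exposed, which overlapped. Cd3g fell by 0.98 in controls (edgeR adjusted p = 0.00655), its change in knockouts was 0.08 (SE 0.26), and the difference was 1.06 (SE 0.37). Of 15 T cell genes 14 had a difference above 0, with a median of 0.66, and 4 (Cd3g, Cd7, Trbc2 and Trdc) reached an unadjusted p under 0.05. Over all genes 54.6% had a difference above 0 and 3.43% were higher at that level. The count of 4 was 2 with upper-quartile scaling, by DESeq2 and without unexposed control 1 or 4, unexposed knockout 1, exposed control 1, 3 or 4 or exposed knockout 2 or 4, while the median stayed between 0.52 and 0.93 when single libraries were left out. The list summed to 96.5 to 120 CPM in controls without UVB and 71.5 to 99 CPM with it, and to 51.6 to 93.2 and 68 to 122 CPM in knockouts. Whether this reflects the number of T cells was not tested.

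Other genes rose more in knockouts than in controls. 1700072G22Rik, whose function is not described here, had 1.12, 0.612, 2.52 and 0.728 CPM in unexposed controls and 0.245, 0.106, 0.0402 and 0.125 CPM in unexposed knockouts. After UVB, 1700072G22Rik had 17.2, 10, 17.9 and 14 CPM in controls and 8.38, 15.7, 11.7 and 15.3 CPM in knockouts. It started lower in every knockout and ended in the same range. It rose 12-fold and 94.3-fold (edgeR adjusted p = 1.41e-06 and 2.45e-08), a difference of 2.97 (SE 0.61) (adjusted p = 0.312, DESeq2 0.00355). The log2 rise of 1700016G22Rik was 6.39 in controls and 9.54 in knockouts, and that of Cdhr2, a protocadherin, 6.24 and 9.32 (all 4 with an edgeR adjusted p of at most 1.95e-07). Both were at or near 0 counts in unexposed knockouts, so the size of their knockout response depends on the model.

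Slc25a24, a mitochondrial carrier of ATP-magnesium, held 3.18, 3.91, 3.82 and 3.8 CPM in unexposed controls and 3.49, 4.19, 2.74 and 3.55 CPM in exposed controls. In knockouts Slc25a24 held 4.03, 5.06, 3.56 and 4.28 CPM unexposed and 9.11, 8.58, 6.57 and 7.96 CPM exposed. The exposed knockouts were above all other libraries. It rose by 0.93 in knockouts (edgeR adjusted p = 0.00473), its change in controls was -0.07 (SE 0.24), and the difference was 1.00 (SE 0.34) with an interval of 0.30 to 1.71 (adjusted p = 0.718).

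The gene of p53 itself, Trp53, was at 24.9, 25, 19.1 and 23.4 CPM in unexposed controls and at 23.1, 29.6, 17.2 and 17.9 CPM in exposed controls. In knockouts Trp53 was at 21.5, 26.2, 22.1 and 14.7 CPM unexposed and at 33.3, 40, 25.2 and 34.4 CPM exposed. The knockout groups overlapped by 1 library on each side, and the control groups throughout. Trp53 rose by 0.65 in knockouts (edgeR adjusted p = 0.0137), a call lost without unexposed knockout 4 (0.46, adjusted p = 0.087) or exposed knockout 2 (0.55, 0.0617) or 4 (0.58, 0.0557). Its change in controls was -0.07 (SE 0.20), and the difference was 0.72 (SE 0.28) with an interval of 0.15 to 1.30 (unadjusted p = 0.0164, adjusted p = 0.782).

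Cdkn1a and Mdm2, targets of p53, rose in both genotypes. Cdkn1a, the cell cycle inhibitor p21, stood at 339, 338, 304 and 327 CPM in unexposed controls and at 301, 264, 409.7 and 259.9 CPM in unexposed knockouts. Cdkn1a then stood at 1484, 1107, 1135 and 962 CPM in exposed controls and at 689, 975, 900.2 and 1237 CPM in exposed knockouts, and the genotypes overlapped at both ends. It rose 3.58-fold and 3.08-fold (edgeR adjusted p = 1.77e-07 and 1.23e-06), with a difference of -0.22 (SE 0.25) and an interval of -0.73 to 0.30. Mdm2, the ubiquitin ligase that limits p53, rose 2.81-fold and 2.36-fold (edgeR adjusted p = 2.87e-07 and 3.54e-06), with a difference of -0.25 (SE 0.21) and an interval of -0.69 to 0.19. Of 39 p53 targets on the list 18 rose and 8 fell in controls, 17 rose and 4 fell in knockouts, the median difference was -0.07, and Gadd45a alone had an unadjusted p under 0.05. Among all genes 17.7% rose and 18% fell in controls, and 18.1% and 14.1% did in knockouts. Such a p was reached by 5.88% of all genes.

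Ercc1, a subunit of the nuclease of nucleotide excision repair, had a genotype gap of like size before and after UVB. It stood at 25.3, 21.4, 23.2 and 21.9 CPM in unexposed controls and at 75.3, 63.1, 63.8 and 58.9 CPM in unexposed knockouts. Ercc1 reached 55, 60.7, 55.6 and 49.7 CPM in exposed controls and 159, 141, 203 and 158 CPM in exposed knockouts. Knockouts were above controls at both ends, with no overlap. The gap was 1.51 (SE 0.13) without UVB and 1.58 (SE 0.13) after it, and Ercc1 rose by 1.27 in controls and 1.34 in knockouts (log2; edgeR adjusted p = 2.31e-07 and 2.27e-07). The difference was 0.07 (SE 0.18), and its interval was -0.29 to 0.44. Of 30 excision repair genes 9 rose in controls and 12 in knockouts, against 17.7% and 18.1% of all genes, the median difference was 0.16, and 3 (Gtf2h1, Gtf2h3 and Pole) had an unadjusted p under 0.05, all with the more positive response in knockouts, which 3.43% of all genes reached. That count was 0 without unexposed knockout 4, where the median was 0.08, and 1 by DESeq2, with upper-quartile scaling and without unexposed control 3, unexposed knockout 2, exposed control 1, 3 or 4 or exposed knockout 1 or 4.

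The related factors Cebpa and Cebpd rose in both genotypes. Cebpa had 276, 251, 225 and 274 CPM in unexposed controls and 289, 257, 318 and 203 CPM in unexposed knockouts. Exposed, Cebpa had 424, 523, 376 and 340.1 CPM in controls and 384, 489.6, 459.8 and 538 CPM in knockouts, and the genotypes overlapped at both ends. It rose by 0.70 and 0.81 (edgeR adjusted p = 0.00125 and 3.47e-04), a difference of 0.11 (SE 0.22) with an interval of -0.34 to 0.57. Cebpd rose by 1.14 and 1.10 (edgeR adjusted p = 0.00213 and 0.00303), a difference of -0.05 (SE 0.38) with an interval of -0.83 to 0.74. Over the 6 tested C/EBP genes the median difference was 0.03.

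At the far ends of the shared response, Cyp26b1, which breaks down retinoic acid, fell by 2.92 in controls and fell by 2.82 in knockouts (edgeR adjusted p = 1.61e-05 and 2.78e-05). Cyp26b1 went from 47.7, 44.7, 95.3 and 76.9 to 7.48, 7.67, 8.89 and 11 CPM in controls and from 40.2, 28.1, 61.2 and 62.4 to 7.82, 4.98, 10.9 and 3.33 CPM in knockouts. The difference was 0.09 (SE 0.49), with an interval of -0.95 to 1.14. The predicted gene Gm5414 rose by 9.82 in controls and 8.52 in knockouts (edgeR adjusted p = 5.29e-08 and 3.03e-07). Its exposed levels were 299, 322, 342 and 200.4 CPM in controls and 49.6, 76.6, 59.7 and 104 CPM in knockouts, without overlap, from 0.746, 0.188, 0.212 and 0.127 CPM and 0.31, 0.301, 0.0805 and 0 CPM. The difference of Gm5414 was -1.30 (SE 0.82), with an interval of -3.05 to 0.46.

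Of 38 gene lists described, none had a member called by edgeR for the difference. The median differences farthest from that of all genes (0.05), among lists of at least 10 tested members, were -1.16 for stress keratinocyte genes, -0.63 for 13 mitochondrial transcripts and -0.60 for 10 fibroblast genes below it, and 0.78 for 23 hair follicle genes, 0.66 for T cell genes and 0.57 for 29 keratin-associated protein genes above it. All 13 mitochondrial transcripts had a difference below 0, none at an unadjusted p under 0.05, and the median ranged from -0.92 (without unexposed control 3) to -0.08 (without unexposed knockout 4) when single libraries were left out. The fibroblast median changed sign: it was 0.59 without exposed control 2 and 0.67 by limma voom, and -1.05 to -0.27 without each of the other libraries. The hair follicle median ranged from 0.40 (without unexposed control 4) to 1.45 (without exposed control 3), and that of keratin-associated protein genes from 0.15 (without unexposed control 4) to 1.00 (without unexposed knockout 4). All 12 fibroblast genes of the list, tested or not, summed to 81.4 to 115 CPM in controls without UVB and 35 to 75.8 CPM with it. In knockouts they summed to 158 to 423 and 151 to 165 CPM. The hair follicle genes summed to 618 to 2188 and 1126 to 4806 CPM in controls, and to 377 to 793 and 336 to 3625 CPM in knockouts. The hair follicle sums of the genotypes overlapped without UVB and after it, while every exposed control was above every unexposed knockout. The 14 Langerhans cell genes had a median difference of 0.22 (0.03 without unexposed control 1 to 0.43 without unexposed knockout 2) and none at an unadjusted p under 0.05, and they summed to 650 to 881 and 765 to 979 CPM in controls, and to 740 to 1098 and 994 to 1233 CPM in knockouts. The part of these cells in the values of other genes was not tested.

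**Figure D5:**
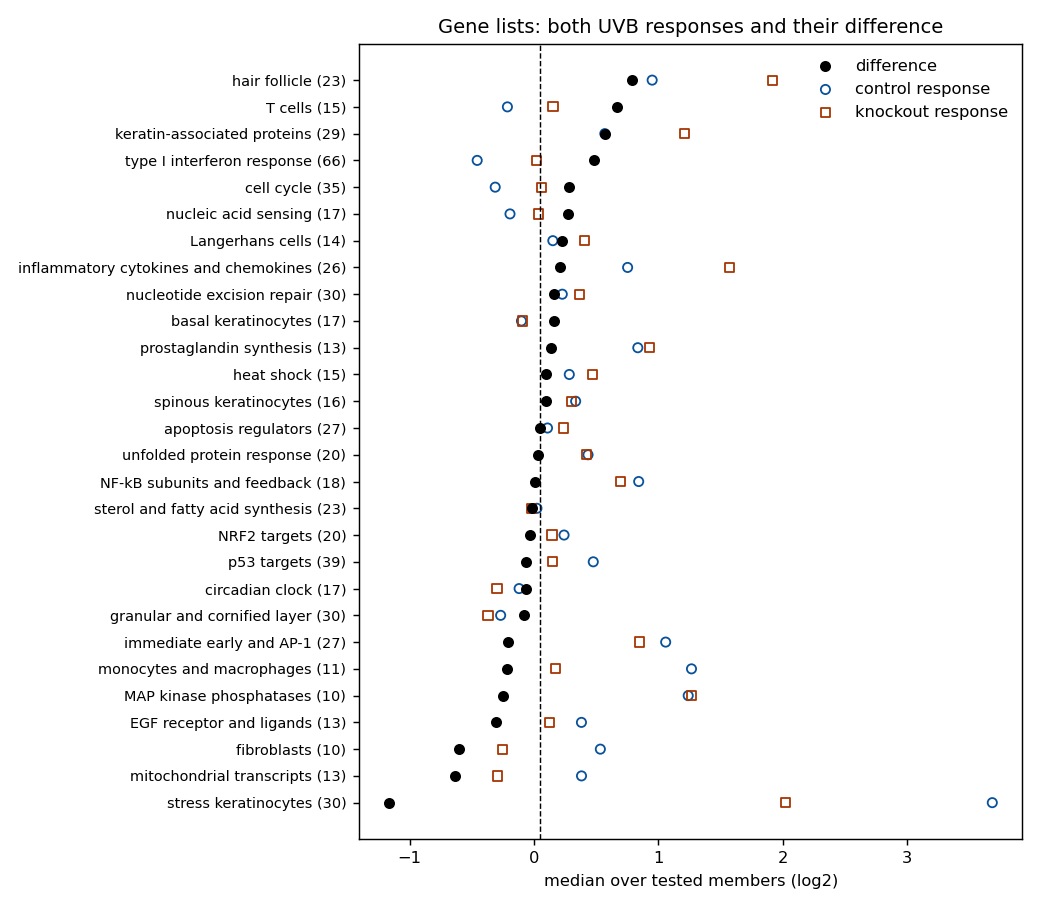
Median log2 UVB response in controls (open circles) and knockouts (open squares) and median difference of the 2 (filled circles) for gene lists with at least 10 tested members (number in brackets); the dashed line is the median difference of all tested genes, 0.05. Stress keratinocyte genes stand lowest at -1.16, and hair follicle (0.78), T cell (0.66) and interferon (0.48) genes stand to the right.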

How the data were processed

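RNA from 16 epidermis samples was made into NEBNext Ultra Directional libraries, per the labels' protocols. The authors deposited 1 table of raw counts, whole numbers per Ensembl gene, made with FastQC, STAR, HTSeq and DESeq2 per the submitters' processing notes. Which tool versions, genome build and strand setting were used is not given in the sources used here, so antisense, overlapping and near-identical genes (Sprr2, Lce3, Serpina3, Krtap) are uncertain. Of the counts from 2 to 101, 68.8% were even, against 50% of those integers, for which the sources give no reason. Columns were joined to samples by library number, and symbols came from GENCODE M21. A chi-square test between replicates gave at least 41.75 per degree of freedom, so no library was a copy of another.

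The counts of 17741 genes kept by filterByExpr entered edgeR 4.0.16 under R 4.3.3 (TMM scaling, robust quasi-likelihood, 1 mean per group, all 16 libraries; common biological coefficient of variation 0.445). Two-sided F tests of each contrast were adjusted by Benjamini-Hochberg over all genes, with a threshold of 0.05. The SE is the size of the log2 value over the square root of F, and 95% intervals use the t quantile. CPM use TMM-scaled library sizes. Alternatives were DESeq2 1.42.0, limma 3.58.1 (voom), other scaling and filters, sex read from the counts as a covariate, and leaving out each library. DESeq2 with each library left out was added after seeing the data. Scripts were tested on simulated data, with 100 genes given a 2-fold and 100 a 4-fold difference of response. There edgeR recovered 16 and 57 of them and called 3 unchanged genes. DESeq2 recovered 30 and 66 and called 18 unchanged genes. Python 3.11.15 and matplotlib 3.10.9 made tables and figures. Promoters came from RefSeq (GRCm38.p6).

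The members and the 38 lists were chosen with earlier results of these data known. Named genes were 15 fixed ones, the 12 in each direction with the smallest p for the difference at a mean of at least 1 CPM, up to 3 of each list, those called in opposite directions, and the strongest shared and 1-genotype responses. Of 174 such genes a part is described, for reasons of length. Genes named outside this rule carry a remark that their values were known by then.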

Additional observations from a re-analysis of the deposited data

Results flagged for a closer look

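In groups of 4 libraries, the highest or lowest library was examined for its gap to the nearest other, as a share of the group's range. The gap exceeded Dixon's critical value in 10 of 172 groups of gene levels tested, where chance gives about 1 in 20. Higher than the others were Lce3a in unexposed control 1 (2.41 CPM, share 0.849), Thbd in exposed control 2 (50.9 CPM, 0.902), Il24 in unexposed control 4 (0.091 CPM, 1.0, the other 3 at 0), Prkaa1 in unexposed knockout 3 (25.1 CPM, 0.882), Gm5414 in unexposed control 1 (0.746 CPM, 0.863), Lce3d in unexposed knockout 1 (10.8 CPM, 0.945) and H2-Ea-ps in exposed control 2 (15.6 CPM, 1.0, the other 3 at 0). Lower than the others were Alg14 in exposed knockout 4 (5.50 CPM, 0.841), Mdm2 in unexposed control 2 (76.1 CPM, 0.83) and Slc25a24 in unexposed control 1 (3.18 CPM, 0.857). The cause of these single values was not tested.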

How the results depend on the processing

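No paired analysis was possible because the labels give the groups no shared replicate numbers. EdgeR called no gene for the difference with upper-quartile scaling, limma voom (which also gave 0), a filter of at least 1 CPM in 4 libraries, non-robust dispersions or sex as a covariate. DESeq2 called 6 higher and 25 lower (9 of them list members), and edgeR without a filter called 2 lower, Osmr and Gm42743. Leaving out 1 library gave 0 to 2 genes lower and 0 higher: Osmr without exposed control 4, Osmr and Pglyrp3 without exposed knockout 4, and Gm9774 without exposed knockout 1. DESeq2 calls ranged from 19 to 100 over these fits. Counts of UVB calls stayed within 1.5 times. The gap between genotypes was less stable. Without UVB DESeq2 called 377 higher and 345 lower, and edgeR with 1 library left out 67 to 214 and 63 to 229, with a count more than 1.5 times below the full one without unexposed control 2, 3 or 4 or unexposed knockout 1 or 2. After UVB DESeq2 called 702 and 791, and edgeR with 1 library left out 229 to 831 and 190 to 667, with counts under 280 without exposed control 3 or exposed knockout 1, 2 or 3. The cause was not tested.

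Among the genes named, changes of sign touched values that no test called and H2-Ea-ps. Of the list medians described above, that of the fibroblast genes changed sign by limma voom (0.67) and without exposed control 2 (0.59). Those of the C/EBP (-0.13 to 0.13), NF-kB (-0.10 to 0.092) and p53 lists (-0.13 to 0.001) crossed 0 with 1 library left out. Many lists not described above also crossed 0 in these fits. Among them were inflammatory cytokines and chemokines (-0.11 to 0.50), NRF2 targets (-0.16 to 0.17), heat shock (-0.085 to 0.26) and apoptosis genes (-0.063 to 0.097). With 1 library left out, the ranges were, for the difference, Cebpa -0.036 to 0.25, Ercc1 -0.038 to 0.15, Mx1 -0.22 to 0.33, Cyp26b1 -0.24 to 0.32, Isg15 -0.34 to 0.58, Cebpd -0.24 to 0.12, Irf7 -0.42 to 0.33 and H2-Ea-ps -10.7 to 0.22. For the knockout response they were Serpina3h -0.027 to 0.41, Cd3g -0.20 to 0.29, Rsad2 -0.50 to 0.39, Isg15 -0.79 to 0.18 and H2-Ea-ps -0.013 to 0.69, and for the control response Slc25a24 -0.24 to 0.025, Trp53 -0.31 to 0.028 and H2-Ea-ps 0 to 10.93. Limma voom gave -0.19 for Rsad2 and -2.14 for H2-Ea-ps in knockouts, and -0.043 for the difference of Mx1. Sex as a covariate gave -0.29 for Rsad2 and -0.084 for H2-Ea-ps, and upper-quartile scaling -0.016 for Cd3g, all in knockouts. The difference of Irf7 was -0.034 with upper-quartile scaling, -0.043 by DESeq2, -0.0695 by limma voom, -0.021 with the filter of at least 1 CPM and -0.064 with sex.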

Other observations

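Some genes with extreme differences lay outside the naming rule and were picked with their values known. Trpv1, the heat and capsaicin channel, had 30, 36, 28 and 22 counts in unexposed controls and 0 in all 4 exposed controls. In knockouts it had 1, 4, 0 and 4 counts unexposed and 18, 12, 22 and 4 exposed. The order of the 2 conditions was thus opposite in the 2 genotypes, at under 40 counts in all libraries. Trpv1 fell in controls (edgeR adjusted p = 0.00119), its log2 change in knockouts was 2.35 (SE 1.18) (0.149), and the difference had an unadjusted p of 1.03e-04 (adjusted p = 0.312, DESeq2 0.00143). The predicted gene Gm43388 had 0 in all 4 unexposed controls, 62, 22, 38 and 11 counts in exposed controls, 12, 7, 14 and 0 in unexposed knockouts and 2, 5, 0 and 2 in exposed knockouts, with adjusted p-values of 0.328 by edgeR and 0.00245 by DESeq2. Against a floor of 3 counts per library its exposed control mean was at least 13.3-fold higher than that of unexposed controls. Phlda1, a target of growth factor signalling, rose by 4.29 in controls and 2.89 in knockouts (edgeR adjusted p = 9.93e-09 and 5.74e-07), with a difference of -1.40 (SE 0.36).

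H2-Ea-ps, a pseudogene of the MHC class II E alpha chain, was the gene with the smallest DESeq2 adjusted p for the difference (1.04e-05), whereas edgeR gave an unadjusted p of 0.0661. It had 0 in all 4 unexposed controls, 0, 683, 0 and 0 counts in exposed controls, 1181, 1186, 428 and 363 in unexposed knockouts and 0, 1403, 1064 and 1231 in exposed knockouts. Libraries of 1 group were thus either at 0 or at 363 counts and above. Mouse strains are known to differ in whether they express this gene. The genetic background of single mice was not tested.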
